A study of Mus musculus with 6 samples.

Results

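The genes described here are 36 genes that build, transport and process the lipids of the epidermal barrier. They were chosen by name, with no threshold on their measured values, as the rows of the deposited gene table whose symbol was on a list of ceramide and barrier lipid genes. All 36 were among the 35434 genes in the table, and all 36 passed the filter on low values, which asked that 3 or more samples reach an FPKM (fragments per kilobase of gene and per 1e6 fragments) of 0.5. The samples were lesional skin of mice with psoriasis. One group of 3 samples came from mice that had received control regulatory T cells (Ctrl-Treg), and the other group of 3 from mice that had received regulatory T cells treated with lenvatinib (Lenv-Treg), a drug that blocks several growth factor receptor kinases. All 6 therefore shared the disease and a transfer of regulatory T cells, and no group without disease or without transfer was analysed here. Strain, age, sex, the way the disease was induced and the dose of cells do not appear in the labels. Nor do the labels tie each sample to its own mouse: the p-values rest on the spread between samples, part of which may be technical.

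The outermost layer of the epidermis holds water because its dead cells lie in stacked sheets of ceramides, cholesterol and free fatty acids. Keratinocytes make a sphingoid base, join it to a very long fatty acid, load the product into lamellar granules as glucosylceramide or sphingomyelin, and trim it back to ceramide outside the cell. A special class, the acylceramides, carries linoleate on the far end of the fatty acid; its oxidation by lipoxygenases allows ceramide to be bound to the cell surface. Inherited loss of many of these enzymes causes ichthyosis, a disease of scaling skin.

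Sequences are shown here for 4 genes described below: Degs2 and Nipal4, which were higher in Lenv-Treg, and the ceramide synthase genes Cers3 and Cers4, which moved in opposite directions. Each run is the 250 bases before the start of the gene, 5′ to 3′ on the gene's own strand, from RefSeq on GRCm38.p6, another build than the GRCm39 named for the expression values. Capitals mark matches to the AP-2 letters GCCNNNGGC on either strand. The windows lie at chr12:108702307-108702556 (minus strand), chr11:46166360-46166609 (minus strand), chr7:66743254-66743503 (plus strand) and chr8:4493155-4493404 (plus strand).
Degs2: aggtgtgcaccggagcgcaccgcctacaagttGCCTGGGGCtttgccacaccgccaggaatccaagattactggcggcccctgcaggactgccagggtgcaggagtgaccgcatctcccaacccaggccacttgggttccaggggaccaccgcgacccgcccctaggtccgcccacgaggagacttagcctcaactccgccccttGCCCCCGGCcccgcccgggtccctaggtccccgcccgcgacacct
Nipal4: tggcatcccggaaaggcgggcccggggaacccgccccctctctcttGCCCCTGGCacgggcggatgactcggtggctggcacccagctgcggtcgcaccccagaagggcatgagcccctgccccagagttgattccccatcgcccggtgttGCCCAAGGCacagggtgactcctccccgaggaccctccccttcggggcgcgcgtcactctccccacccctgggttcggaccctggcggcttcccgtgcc
Cers3: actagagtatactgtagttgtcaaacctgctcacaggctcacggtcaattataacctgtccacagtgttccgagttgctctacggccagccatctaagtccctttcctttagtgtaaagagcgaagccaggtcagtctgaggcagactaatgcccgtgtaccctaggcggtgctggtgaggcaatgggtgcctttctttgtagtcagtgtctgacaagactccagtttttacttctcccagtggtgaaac
Cers4: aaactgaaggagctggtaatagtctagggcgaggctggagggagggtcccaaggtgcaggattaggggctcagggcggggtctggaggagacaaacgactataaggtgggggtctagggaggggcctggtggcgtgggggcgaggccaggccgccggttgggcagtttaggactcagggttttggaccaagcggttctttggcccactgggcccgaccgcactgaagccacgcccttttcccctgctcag
Such windows were found for 32 of the 36 genes, as 43 windows, since some genes have several starts. The AP-2 letters occurred in 11 of the 43 windows (25.6%), in 5 of the 17 windows of genes that were higher (29.4%) and in 6 of the 25 windows of genes that did not pass (24%), against 14.2% of the 30899 windows of all genes in the table. Windows of these genes were also richer in G and C, with a median of 59.6% against 52.8% for all windows. The AP-1 letters TGANTCA occurred in 6 of the 43 windows (14%, against 6.62% of all windows) and the KLF letters CCACACCC in 4 (9.30%, against 3.25%). Several of the AP-2 and AP-1 windows were alternative starts of the same gene, Sgms2, which did not pass, so windows are not separate genes. The GRHL letters AACCGGTT occurred in 1 of the 43 windows, that of Sgms1, and in 0.117% of all windows. None of the 4 printed windows other than those of Degs2 and Nipal4 held a match to any of these letters, which were searched on both strands. The printed genes do not stand for all the larger rises. The windows of Sdr9c7 and Degs1 held no match, that of Ugcg held 1 AP-2 match, and those of Sult2b1 held only an AP-1 match. These matches are descriptions of letters, not of bound sites.

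Depth was alike in all libraries, with 37926459 to 39335603 reads recovered from the steps of the FPKM values. The lipid genes were well covered, from 223 reads (Lipn) to 68033 reads (Elovl4) in a library. Epidermis was present in every library: the basal keratinocyte markers summed to between 1800 and 2180 FPKM in the Ctrl-Treg group, compared with between 6130 and 6270 FPKM in the Lenv-Treg group. Krt14 made up most of this rise, with means of 769 and 4430 FPKM. Krt15 fell (291 and 21.9 FPKM), and Col17a1 (47.8 and 51.3 FPKM) and Trp63 (28.6 and 26.3 FPKM) did not pass. The suprabasal keratinocyte markers, the layers in which most barrier lipid genes are used, summed to between 2020 and 3440 FPKM for Ctrl-Treg, and between 1750 and 3900 FPKM for Lenv-Treg. Krt1 was the largest part of the suprabasal sum, with means of 1420 and 1500 FPKM. Markers of other cell types moved strongly. Neutrophil markers summed to at most 191 FPKM in Ctrl-Treg libraries and at least 38100 FPKM in Lenv-Treg libraries. S100a8 and S100a9 made up most of this sum, with Lenv-Treg means of 21900 and 24400 FPKM. The other tested neutrophil markers also rose, but to far lower levels, such as Csf3r (2.95 to 19.6 FPKM) and Ly6g (0.0632 to 4.22 FPKM). Which cells the S100a8 and S100a9 RNA came from was not tested. Hair follicle markers summed to at least 1330 FPKM in Ctrl-Treg libraries but at most 22.2 FPKM in Lenv-Treg libraries. In bulk skin, fewer cells of a type and less RNA per cell cannot be told apart.

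Of the 36 lipid barrier genes, 15 were higher and 1 was lower in Lenv-Treg, and 20 did not pass (limma on log2(FPKM + 1), adjusted p of at most 0.05 over all 13945 genes tested). Together the 16 were 44.4% of the 36, near the 41.7% of all tested genes that passed. By direction, 41.7% of the lipid genes were higher, against 11.0% of all genes, and 2.78% were lower, against 30.8%. At a difference of at least 1 on the log2 scale, 7 of the 36 were higher (19.4%, against 3.76% of all genes) and 0 were lower (against 5.85%). The median difference of the 36 genes was 0.39, and that of all tested genes was -0.17. Scaling moved both medians together. They were 0.59 and 0.00 after scaling to equal medians of ratios, 0.13 and -0.44 after rescaling to TPM, and 0.45 and -0.01 after quantile normalization. The lipid genes thus lay between 0.46 and 0.59 above all genes on these scales. Median-ratio scaling and TPM rescale each library by 1 factor, so this gap was bound to change little under them. With no filter on low values it was 0.42. After rescaling to TPM, 9 of the 36 were higher (25.0%, against 6.79% of all genes) and 5 lower (13.9%, against 57.2%). Groups did not overlap for 18 of the 36 genes (50.0%, against 55.4% of all genes), 16 of them higher (against 14.4%) and 2 lower (against 41.0%).

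**Figure D1:**
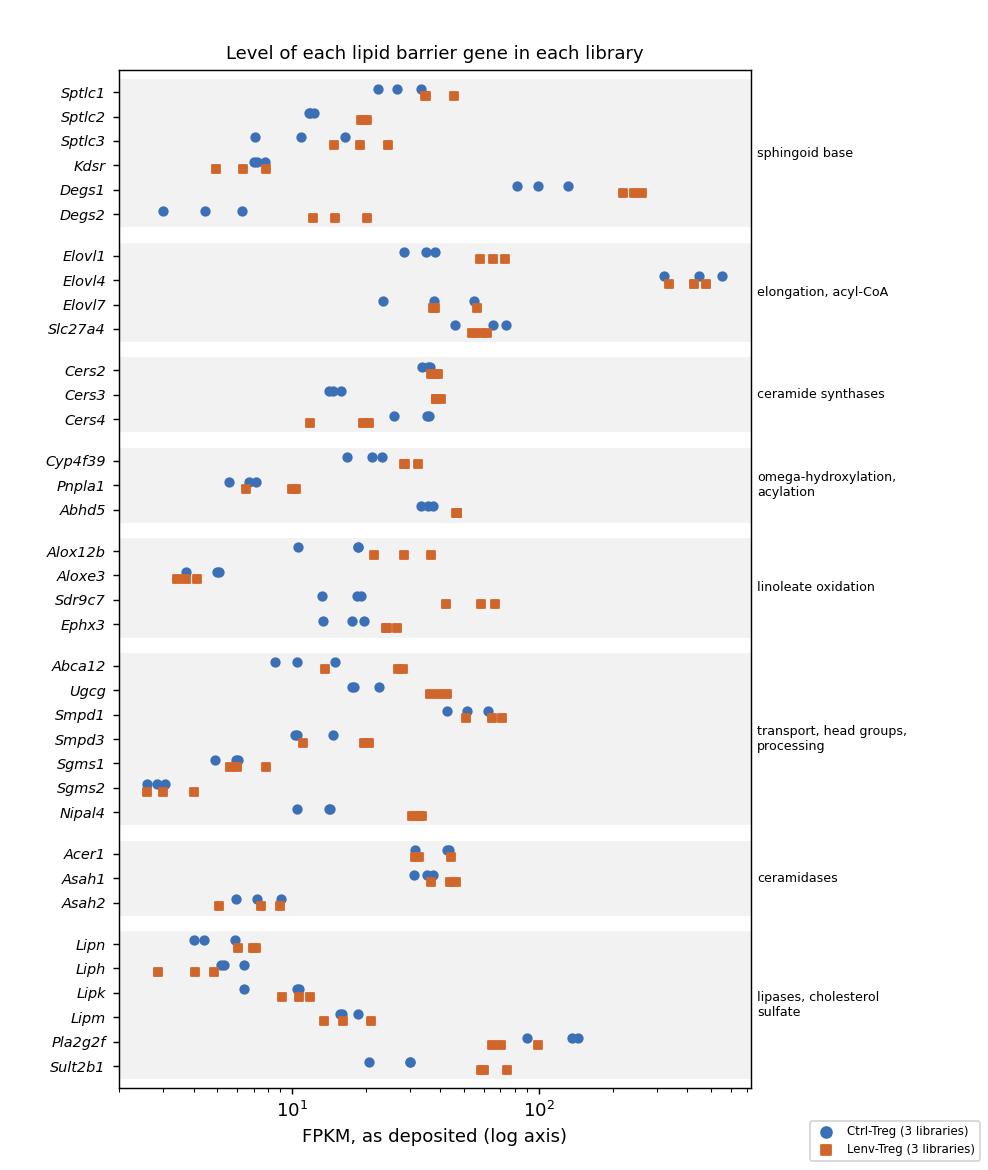
FPKM of each of the 36 lipid barrier genes in each library, on a log axis, grouped by role; circles are the 3 Ctrl-Treg libraries and squares the 3 Lenv-Treg libraries. Squares lie wholly to the right of the circles for 16 genes and wholly to the left for 2, Cers4 and Liph.

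Of the 6 genes of sphingoid base synthesis, 3 rose. Where a sentence gives a pair of means, Ctrl-Treg comes first, each with its SD over 3 samples. Degs1, the desaturase that turns dihydroceramide into ceramide, was the second most abundant of the 36 genes over all 6 samples, and the third in Ctrl-Treg. Its level was 131, 82.0 and 99.1 FPKM in the 3 Ctrl-Treg libraries and 244, 220 and 263 FPKM in the 3 Lenv-Treg libraries. Every Lenv-Treg library was thus above every Ctrl-Treg library, and the mean rose 2.33-fold (log2 difference 1.23, SE 0.18, limma adjusted p = 0.00173, n = 3 per group). Degs2, whose enzyme adds a hydroxyl group to make phytoceramides, was much scarcer, at 6.29, 3.02 and 4.45 FPKM in the Ctrl-Treg group, compared with 14.9, 20.2 and 12.2 FPKM in the Lenv-Treg group. The groups were again apart, and Degs2 had the largest fold of the 36 genes, 3.43 (1.60, SE 0.25, limma adjusted p = 0.0022). Sptlc2, a catalytic subunit of serine palmitoyltransferase, which starts the pathway, rose from 11.9 ± 0.352 to 19.6 ± 0.573 FPKM (0.67, SE 0.08, limma adjusted p = 0.000786).

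The other 3 genes of this step did not pass. Sptlc1, the partner subunit, was 27.4 ± 5.67 and 38.2 ± 6.01 FPKM, with groups that did not overlap (0.47, limma adjusted p = 0.0589, and adjusted p = 0.0218 after median-ratio scaling). Sptlc3, the alternative catalytic subunit, was 11.5 ± 4.71 and 19.4 ± 4.89 FPKM, with groups that overlapped (0.75, limma adjusted p = 0.0699). Kdsr, the reductase of the next step, was 7.36 ± 0.382 and 6.40 ± 1.49 FPKM (95% interval of the difference -0.55 to 0.16); it was lower after rescaling to TPM (-0.48, limma adjusted p = 0.0468), and its difference was 0.01 after quantile normalization.

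Of the 4 genes of chain elongation and acyl-CoA supply, 1 rose. Elovl4, the elongase of the longest chains and the most abundant of the 36 genes, was 553, 321 and 446 FPKM for Ctrl-Treg, and 475, 338 and 427 FPKM for Lenv-Treg. The groups overlapped fully, and the difference was -0.07 with a 95% interval of -0.61 to 0.46 (limma adjusted p = 0.825). Elovl1, which makes the shorter very long chains, rose from 33.7 ± 4.86 to 65.4 ± 7.50 FPKM, 1.94-fold (0.94, SE 0.14, limma adjusted p = 0.00179). Its share of the summed FPKM of Elovl1, Elovl4 and Elovl7 was 5.87%, 7.61% and 6.73% among Ctrl-Treg libraries and 11%, 16.3% and 11.1% among Lenv-Treg libraries, and this share does not depend on the scaling between libraries. Elongases outside the 36 genes, such as Elovl6 (178 ± 32.6 and 58.6 ± 22.6 FPKM), were left out of that sum. Elovl7 (38.6 ± 15.7 and 43.8 ± 10.5 FPKM) did not pass (limma adjusted p = 0.552). Slc27a4, which activates fatty acids to acyl-CoA, stood at 73.5, 45.8 and 65.5 FPKM in Ctrl-Treg libraries and 61.5, 53.7 and 57.7 FPKM in Lenv-Treg libraries. The Lenv-Treg libraries lay inside the Ctrl-Treg range (limma adjusted p = 0.774, 95% interval -0.48 to 0.34).

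Ceramide synthases join base and acyl chain, and of those among the 36 genes, 1 rose, 1 fell and 1 did not pass. Cers3, the enzyme for the ultra-long acyl chains of barrier ceramides, was 14.7, 14.2 and 15.8 FPKM in the Ctrl-Treg group, compared with 40.1, 38.5 and 38.5 FPKM in the Lenv-Treg group. It rose 2.62-fold with little spread in either group (1.33, SE 0.08, limma adjusted p = 6.95e-05, the smallest of the 36). Cers4, which prefers shorter chains, was the only one of the 36 genes that fell at this threshold. Its values were 35.9, 25.9 and 35.4 FPKM for Ctrl-Treg, and 20.6, 11.8 and 19.4 FPKM for Lenv-Treg, without overlap (-0.89, SE 0.22, limma adjusted p = 0.0157). Cers2, expressed in most tissues, was 35.1 ± 1.32 and 37.8 ± 1.39 FPKM (0.10, limma adjusted p = 0.356).

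The composition of these 3 synthases therefore differed between the groups. Of their summed FPKM, Cers3 held 17.1%, 18.6% and 18.7% among Ctrl-Treg libraries and 40.8%, 43.0% and 40.8% among Lenv-Treg libraries. Cers4 held 41.7%, 33.9% and 41.7% among Ctrl-Treg libraries and 20.9%, 13.2% and 20.6% among Lenv-Treg libraries, whereas the share of Cers2 overlapped between the groups (42.8% ± 4.12 and 40.3% ± 3.09, SD, n = 3). The Degs2 share of Degs1 and Degs2 together also overlapped (4.14% ± 0.528 and 6.20% ± 2.04). These shares were computed after the values had been seen and are given without a test. The synthase shares left out Cers5, which fell (67.7 ± 22.2 and 28.2 ± 3.69 FPKM). They also left out Cers6 (1.15 ± 0.0707 and 1.28 ± 0.0575 FPKM), which did not pass. Shares of all ceramide synthases were not computed. Cers4 is also used in the sebaceous gland and hair follicle. In the same libraries 7 of 10 sebaceous gland markers fell and 0 rose, with sums of 907 to 1110 FPKM in Ctrl-Treg libraries and 318 to 543 FPKM in Lenv-Treg libraries. Scd1 was the largest part of that sum, with means of 705 and 216 FPKM. Awat1, Elovl3 and Dgat2l6 did not pass, and the calls of Awat2, Soat1 and Far2 each ended in 4 of the 6 fits that left out 1 library. Of the hair follicle markers, 9 of 9 fell. No marker of either list was at 0 in all libraries, and the part of these markers in the lower Cers4 level was not tested.

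**Figure D2:**
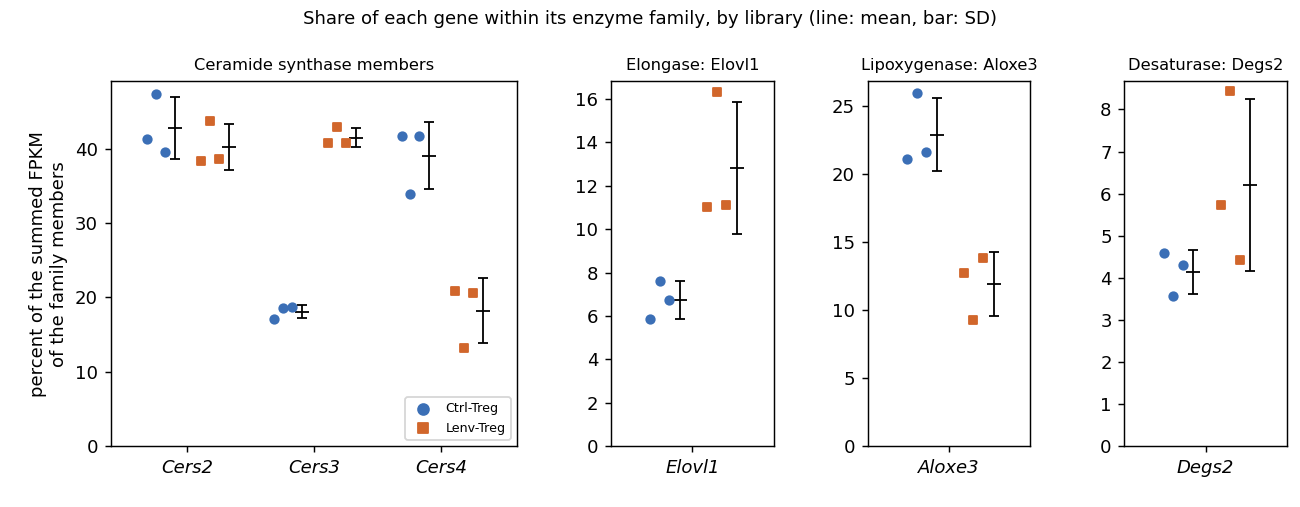
Percent of a summed FPKM held by single genes in each library. For the ceramide synthases the sum is that of Cers2, Cers3 and Cers4, without Cers5 and Cers6. The other panels show Elovl1 among 3 elongases, Aloxe3 among 2 lipoxygenases and Degs2 among 2 desaturases. Points are libraries, and the bars give the mean and SD of 3. The Cers3 and Cers4 shares of the 2 groups lie apart, at 18.1% against 41.5% and at 39.1% against 18.2%, while those of Cers2 overlap.

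Of the 3 genes of acylceramide formation, 2 rose. Cyp4f39, which hydroxylates the end of the ultra-long fatty acid, rose from 20.4 ± 3.32 to 30.0 ± 2.14 FPKM (0.55, SE 0.13, limma adjusted p = 0.0144). Abhd5, the partner protein of the transacylase, rose from 35.4 ± 2.01 to 46.4 ± 0.332 FPKM (0.38, SE 0.09, limma adjusted p = 0.0111). Both calls ended after rescaling to TPM (adjusted p = 0.134 and 0.362). Pnpla1, the transacylase that attaches linoleate, did not pass (6.49 ± 0.824 and 8.99 ± 2.15 FPKM, limma adjusted p = 0.106): Lenv-Treg replicate 3 had 6.53 FPKM, inside the Ctrl-Treg range, and without that library it passed (adjusted p = 0.016).

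Of the 4 genes of linoleate oxidation 3 rose, and they held the largest difference on the log2 scale. Sdr9c7, a dehydrogenase acting after the lipoxygenases, was 19.0, 13.2 and 18.3 FPKM in the Ctrl-Treg group, compared with 58.2, 66.7 and 42 FPKM in the Lenv-Treg group. It rose 3.31-fold, and the lowest Lenv-Treg library was more than double the highest Ctrl-Treg library (1.66, SE 0.20, limma adjusted p = 0.000776). Of the 2 lipoxygenases that act in sequence, the first passed and the second did not, a difference that was not itself tested. Alox12b, the first, rose from 15.9 ± 4.59 to 28.9 ± 7.50 FPKM (0.83, SE 0.25, limma adjusted p = 0.0339), a call that ended without Ctrl-Treg replicate 2, Lenv-Treg replicate 1 or Lenv-Treg replicate 2 (adjusted p of 0.0725, 0.0778 and 0.109), on the TPM scale (adjusted p = 0.0872) and with no filter on low values (adjusted p = 0.0886). Aloxe3, the second, was 4.60 ± 0.761 and 3.77 ± 0.354 FPKM and did not pass (-0.23, limma adjusted p = 0.189). Aloxe3 made up 21.1%, 26% and 21.6% of their summed FPKM across Ctrl-Treg libraries, but 12.7%, 9.25% and 13.8% across Lenv-Treg libraries. Ephx3, an epoxide hydrolase of the same route, rose from 16.9 ± 3.11 to 25.0 ± 1.37 FPKM (0.56, SE 0.14, limma adjusted p = 0.0161), a call that ended after rescaling to TPM (adjusted p = 0.127).

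Of the 7 genes of transport, head groups and processing, 3 rose. Ugcg, which makes glucosylceramide for the lamellar granules, was 22.6, 17.5 and 17.8 FPKM for Ctrl-Treg, and 39.5, 36.2 and 42.7 FPKM for Lenv-Treg, without overlap. The rise was 2.05-fold (1.00, SE 0.12, limma adjusted p = 0.000849). Nipal4, a membrane protein gene mutated in ichthyosis, was 14.3, 10.5 and 14.1 FPKM in Ctrl-Treg libraries and 33.6, 32.6 and 30.6 FPKM in Lenv-Treg libraries. All Lenv-Treg libraries were at least 30.6 FPKM, and the rise was 2.49-fold (1.26, SE 0.13, limma adjusted p = 4e-04). Abca12, the transporter that fills lamellar granules with lipid, rose from 11.3 ± 3.26 to 23.0 ± 8.09 FPKM although Lenv-Treg replicate 3 (13.6 FPKM) lay below Ctrl-Treg replicate 1 (14.9 FPKM). Its call (0.92, SE 0.29, limma adjusted p = 0.0396) ended without Ctrl-Treg replicate 2 or 3 or Lenv-Treg replicate 1 or 2 (adjusted p of 0.0859 to 0.125), and also on the TPM scale (adjusted p = 0.103).

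The sphingomyelin genes did not pass. Smpd1, the acid sphingomyelinase and the fifth most abundant gene over all 6 samples, was 62.3, 42.6 and 51.4 FPKM in the Ctrl-Treg group, compared with 64.5, 71.1 and 50.8 FPKM in the Lenv-Treg group. The groups overlapped (0.25, 95% interval -0.16 to 0.66, limma adjusted p = 0.276). Smpd3, a neutral sphingomyelinase, was 11.8 ± 2.45 and 17.1 ± 5.24 FPKM (limma adjusted p = 0.156). The sphingomyelin synthases Sgms1 (5.64 ± 0.647 and 6.48 ± 1.21 FPKM) and Sgms2 (2.84 ± 0.240 and 3.20 ± 0.726 FPKM) had adjusted p of 0.364 and 0.507 in limma. Ugcg and these synthases use the same ceramide, and of the 3 genes only Ugcg passed; whether their changes differ was not tested.

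None of the 3 ceramidases, which split ceramide into base and fatty acid, passed. Acer1, the alkaline ceramidase found in keratinocytes, was 39.1 ± 6.59 and 36.1 ± 6.96 FPKM (95% interval -0.51 to 0.29). Asah1, the lysosomal acid ceramidase, was 34.6 ± 2.94 and 42.2 ± 5.10 FPKM (limma adjusted p = 0.0995, and adjusted p = 0.0195 after median-ratio scaling). Asah2, the neutral ceramidase, was 7.40 ± 1.58 and 7.18 ± 1.99 FPKM (95% interval -0.54 to 0.44).

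Of the 6 lipase and cholesterol sulfate genes, 2 rose. Sult2b1, which sulfates cholesterol in the upper epidermis, was 30.1, 20.6 and 30.0 FPKM for Ctrl-Treg, and 58.6, 74.2 and 60.3 FPKM for Lenv-Treg. It rose 2.39-fold without overlap (1.24, SE 0.17, limma adjusted p = 0.0013). Pla2g2f, a secreted phospholipase of the upper epidermis and the third most abundant gene over all 6 samples (the second in Ctrl-Treg), was 137, 89.5 and 144 FPKM in Ctrl-Treg libraries and 99.7, 70.5 and 64.8 FPKM in Lenv-Treg libraries. Its mean was lower in Lenv-Treg, but 1 library of each group crossed, and it did not pass (-0.65, SE 0.23, limma adjusted p = 0.0546); it passed as lower after rescaling to TPM (-0.94, adjusted p = 0.0107). Liph, a phospholipase known from the hair follicle, was 5.61 ± 0.672 and 3.91 ± 0.995 FPKM, without overlap, and did not pass either (-0.44, limma adjusted p = 0.0629).

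The 3 acid lipases of the Lipk, Lipm and Lipn cluster differed little. Lipn rose from 4.78 ± 0.990 to 6.73 ± 0.577 FPKM (0.43, SE 0.14, limma adjusted p = 0.0392), but no longer passed when a library other than Ctrl-Treg replicate 3 was left out (largest adjusted p 0.116), nor on the TPM scale (adjusted p = 0.237). Lipk (9.21 ± 2.43 and 10.6 ± 1.35 FPKM) and Lipm (16.7 ± 1.54 and 16.8 ± 3.74 FPKM) did not pass, at limma adjusted p of 0.42 and 0.982.

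**Figure D3:**
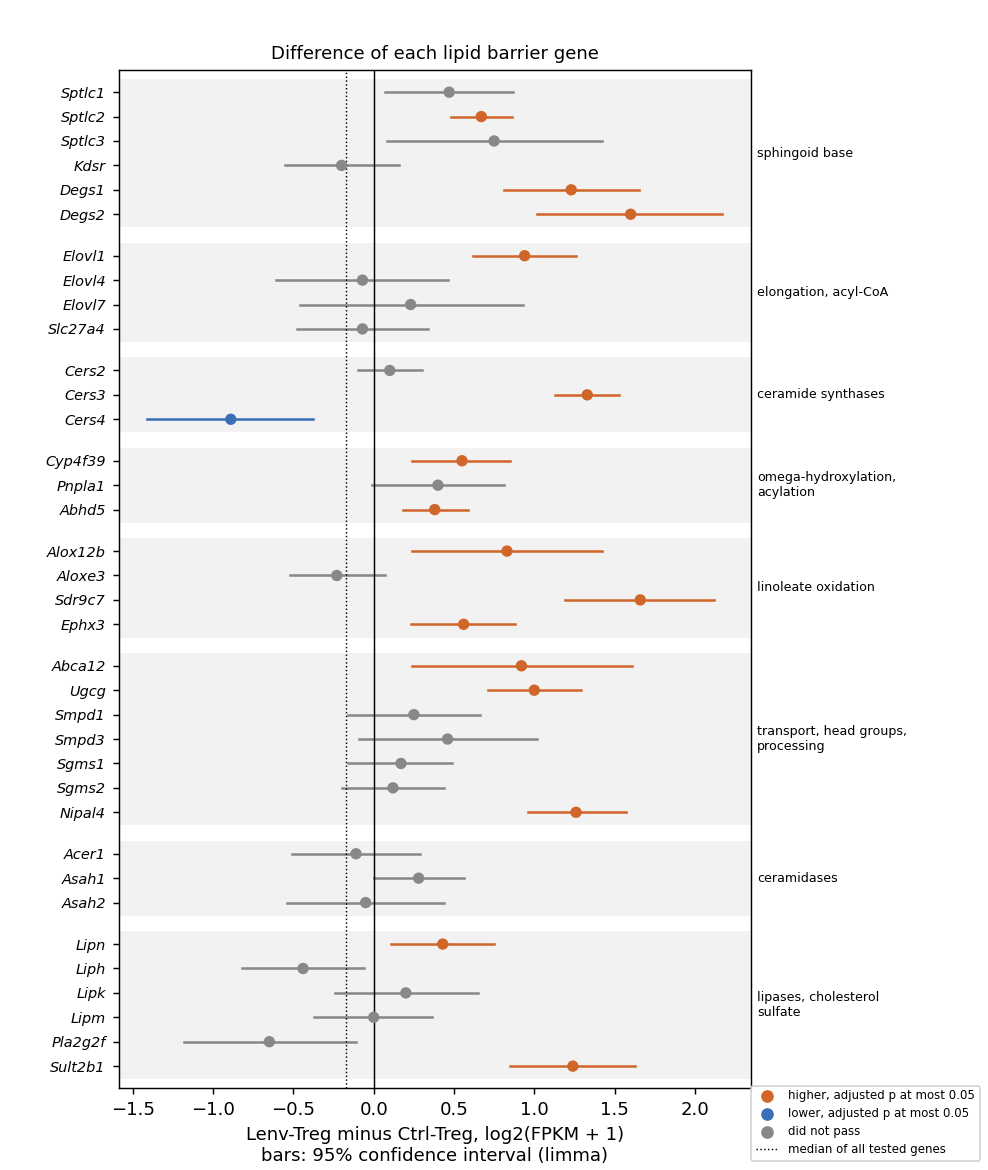
Difference of each of the 36 genes in log2(FPKM + 1), as Lenv-Treg minus Ctrl-Treg, with its 95% confidence interval from limma, grouped by role. The 15 genes that passed as higher lie right of 0 and Cers4, the 1 that passed as lower, lies left of it; the dotted line is the median of all tested genes, -0.17.

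The calls differed in how firmly they held. In all, 10 calls passed at 0.05 under all 17 alternatives run at that threshold: Sptlc2, Degs1, Degs2, Elovl1, Cers3, Sdr9c7, Ugcg, Nipal4 and Sult2b1 as higher, and Cers4 as lower. Cers4 passed narrowly, with a largest limma adjusted p of 0.0485 (no filter on low values). The largest among the 9 higher calls was 0.0122 (Degs2). Leaving out each library in turn left 13 of the 16 calls in place, and the 3 that ended were Alox12b, Abca12 and Lipn. The same 3 calls ended with no filter on low values (adjusted p of 0.0886, 0.102 and 0.0824), which left 13. Rescaling to TPM ended 6 calls, those of Cyp4f39, Abhd5, Alox12b, Ephx3, Abca12 and Lipn, and added Kdsr, Aloxe3, Liph and Pla2g2f as lower. Median-ratio scaling added Sptlc1, Sptlc3, Cers2, Pnpla1 and Asah1 as higher.

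**Figure D4:**
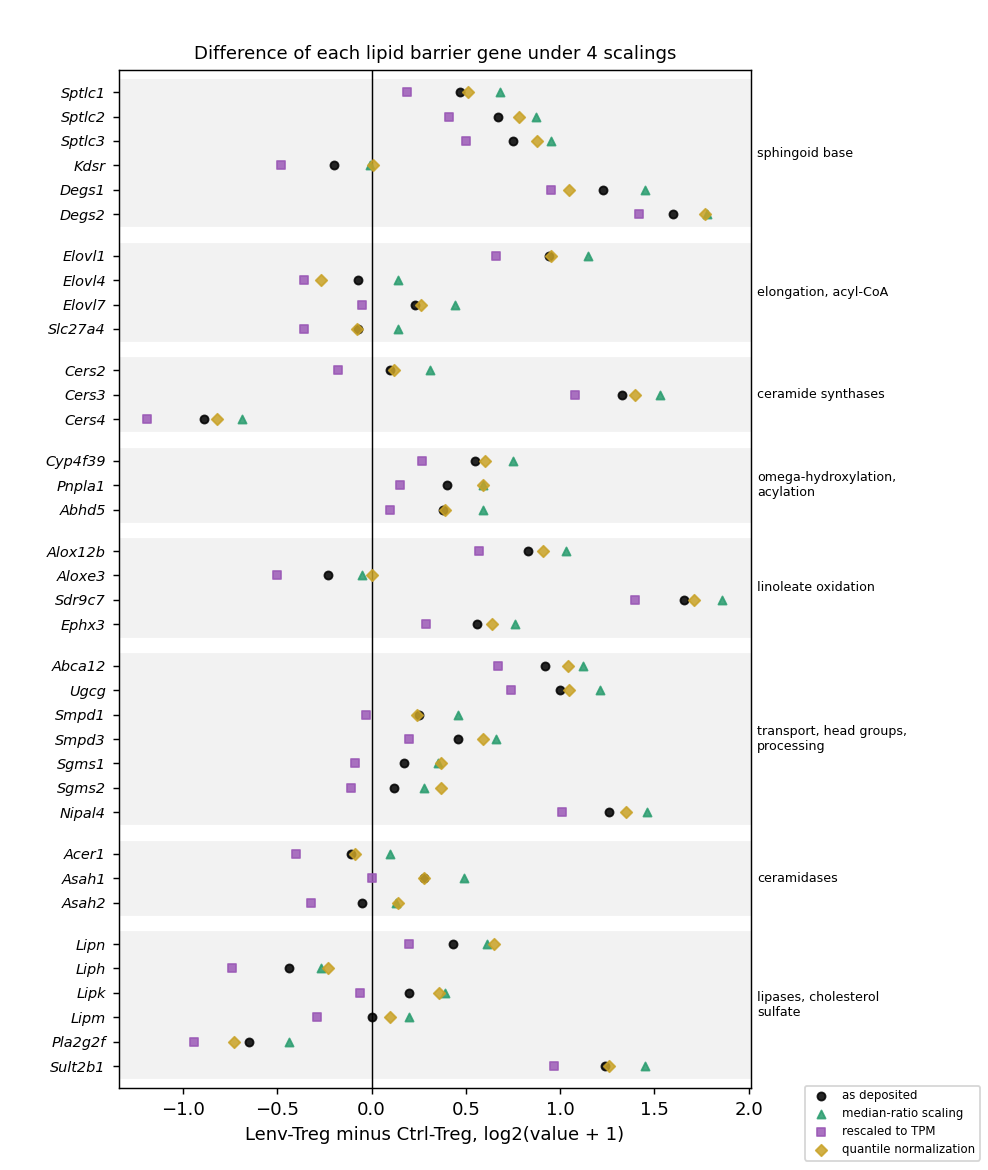
Difference of each of the 36 genes (Lenv-Treg minus Ctrl-Treg, log2(value + 1)) with the values as deposited, after median-ratio scaling, after rescaling to TPM and after quantile normalization. Median-ratio scaling moves the genes up and TPM moves them down, while quantile normalization moves some up and others, such as Degs1 (1.23 to 1.05), down; Cers3 ranges from 1.08 to 1.53 and Cers4 from -1.19 to -0.69, while Elovl4 changes sign, from -0.36 to 0.14.

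Libraries of a group were not alike in these genes. Ctrl-Treg replicate 2 was the lowest Ctrl-Treg library for 30 of the 36 genes, but for 29.3% of all tested genes. Its summed FPKM over the 36 genes was 1038, against 1571 and 1362 in Ctrl-Treg replicates 1 and 3 and 1815, 1585 and 1593 in Lenv-Treg. The FPKM of all genes also summed to more in Lenv-Treg (543189, 579251 and 612665) than in Ctrl-Treg (461544, 458848 and 499306), so the sums of the 2 groups are not on 1 scale. The suprabasal marker sum of Ctrl-Treg replicate 2 was also the lowest of its group, at 2020 FPKM against 3440 and 2980. In Lenv-Treg, replicate 3 was the lowest library for 21 of the 36 genes (37.2% of all tested genes), and its suprabasal marker sum was 1750 FPKM against 3900 and 1980. Without Ctrl-Treg replicate 2 the median difference of the 36 genes was 0.32, and 12 were higher and 2 lower. Over all 13945 tested genes that fit gave a median of -0.15, with 1259 higher and 3184 lower. The part of the suprabasal markers in these differences between libraries was not tested.

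Epidermal cell markers moved in both directions. For comparison, 11.0% of all tested genes rose and 30.8% fell. Of 12 suprabasal keratinocyte markers 4 rose (33.3%), 4 fell (33.3%) and 4 did not pass (median -0.02). Tgm1, Tgm3, Dsg1b and Dsc1 rose, by 1.03 (Dsc1) to 2.75 (Tgm3). Krt10, Lor, Flg and Flg2 fell, from -1.25 (Krt10) to -3.54 (Flg2). The calls of Krt10 and Flg ended in 4 and 2 of the 6 fits that left out 1 library. Of 7 basal keratinocyte markers 4 rose (57.1%) and 1 fell (14.3%), with a median of 0.66. Macrophage markers rose for 3 of 8 and fell for 1. Adipocyte markers fell for 4 of 6 and fibroblast markers for 3 of 6, with none higher. All 7 tested neutrophil markers rose. No T cell marker (4 tested) and no endothelial marker (4 tested) passed. The part of these cell types in the lipid gene results was not tested.

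Other genes of sphingolipid and fatty acid metabolism were called at shares near those of all genes. Of 41 tested genes on a list of them that excludes the 36, 3 rose, 15 fell and 23 did not pass (7.32% higher against 11.0% of all genes, 36.6% lower against 30.8%, and a median of -0.26 against -0.17). After median-ratio scaling 5 rose and 8 fell, beside 2417 higher and 2417 lower of all 13945 genes. After rescaling to TPM 3 rose and 23 fell, beside 6.79% higher and 57.2% lower of all genes. Fabp5, the fatty acid binding protein of the epidermis, rose from 811.0 ± 142 to 4370.0 ± 256 FPKM (2.44, SE 0.21, limma adjusted p = 0.000191). Cyp4f18, an omega-hydroxylase gene of leukocytes, rose from 2.29 ± 0.701 to 13.3 ± 4.33 FPKM (2.09, SE 0.24), beside the rise of neutrophil markers, whose part was not tested.

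The largest falls of that list were in elongases, a synthase and a hydroxylase. Elovl6, which elongates palmitate, fell from 178.0 ± 32.6 to 58.6 ± 22.6 FPKM (-1.65, SE 0.29, limma adjusted p = 0.00391). Elovl5, an elongase of polyunsaturated chains, fell from 69.5 ± 6.56 to 26.9 ± 5.16 FPKM (-1.35, SE 0.15). Cers5, a synthase for palmitoyl chains, fell from 67.7 ± 22.2 to 28.2 ± 3.69 FPKM (-1.19, SE 0.23, limma adjusted p = 0.00552). Fa2h, which hydroxylates fatty acids and is used in sebaceous gland and hair follicle, fell from 160.0 ± 33.0 to 76.5 ± 26 FPKM (-1.09, SE 0.28, limma adjusted p = 0.0174), a call that ended without Ctrl-Treg replicate 1 (adjusted p = 0.053). With Cers4 they fell in the libraries in which 7 of 10 sebaceous and 9 of 9 hair follicle markers fell, and the part of those markers was not tested.

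Of 26 tested transcription factors known in epidermis and its lipid genes, 7 rose (26.9%, against 11.0% of all genes), 8 fell (30.8%, against 30.8%) and 11 did not pass. The following 4 were singled out after their values were seen. Grhl3, a factor of late epidermal differentiation, rose from 12.3 ± 0.806 to 43.2 ± 3.41 FPKM (1.73, SE 0.10, limma adjusted p = 4.23e-05). Of its relatives, Grhl2 fell from 6.13 ± 0.506 to 4.38 ± 0.277 FPKM (-0.41, SE 0.10, limma adjusted p = 0.0137, or 0.0525 with Lenv-Treg replicate 2 left out). The Grhl2 call also ended after median-ratio scaling (-0.23, limma adjusted p = 0.0931) and quantile normalization (-0.20, limma adjusted p = 0.157). Grhl1 was 49.2 ± 6.94 and 39.8 ± 3.44 FPKM and did not pass (-0.29, limma adjusted p = 0.0972). Vdr, the vitamin D receptor gene, had the largest difference of the 26, from 44.2 ± 4.09 to 8.44 ± 0.984 FPKM (-2.26, SE 0.11, limma adjusted p = 3.1e-05).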

How the data were processed

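Bulk RNA-seq of 3 Ctrl-Treg and 3 Lenv-Treg skin samples was used, grouped by the treatment label. The authors deposited FPKM in a single table of 35434 genes; all 6 columns matched a sample title, and 0 other sample columns were present. Per the submitters' processing notes the genome build was GRCm39; for aligner, counter and annotation, the answer is: not given in the sources used here.

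Dividing each gene's FPKM by its smallest step gave whole reads for 13942 of the 13945 tested genes in all 6 samples (tolerance 0.005 reads plus 1.5e-07 per read). The smallest whole solution was used, and counts were not the main unit.

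Genes reaching 0.5 FPKM in 3 or more samples were tested with limma 3.58.1 in R 4.3.3 (eBayes, trend on) after log2(FPKM + 1), two-sided, no covariates, Benjamini-Hochberg adjustment over all 13945 genes, threshold 0.05. The log2 scale with a pseudocount of 1 understates the change of low genes. The script was also tested on simulated data. Group values are mean ± SD (n = 3); a fold is one group's mean FPKM over the other's.

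The members, role groups and lists were chosen with earlier results of these data known, although the rule for the members uses names and no measured value. Values in every sample are given for genes past the threshold without overlap and with a difference of at least 1, and for the 5 with the highest mean; Cers4 was added as the only lower call. Of the other pathway genes, up to 4 per direction with the largest difference are named. The values of 1 gene named by this rule are not reported here.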

Additional observations from a re-analysis of the deposited data

How the results depend on the processing

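Alternatives covered the pseudocount, the filter, scaling, the variance model, sample weights, a replicate block, leaving out each library and a threshold of 0.01; limma's voom on recovered reads was added after seeing the data. Over all genes, 5821 passed, 1532 higher and 4289 lower. Median-ratio scaling gave 2417 higher and 2417 lower, quantile normalization 2304 lower, and rescaling to TPM 8917 in all, 947 higher and 7970 lower. The threshold of 0.01 gave 3171 in all, 925 higher and 2246 lower. Leaving out 1 library gave 2780 to 3900 lower.

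Of the 36 lipid genes, 9 were higher and 5 lower after rescaling to TPM (median 0.13), and 9 passed at 0.01, 9 higher and 0 lower. The count of lower genes was 3 with sample weights, 3 with the replicate block, 2 with voom and 1 to 2 without 1 library. Of the 41 other pathway genes, 5 were higher and 8 lower after median-ratio scaling, 6 higher after quantile normalization and 23 lower after rescaling to TPM; at 0.01, 11 passed, 8 of them lower.

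The 28 changes of sign were all in genes that did not pass. After median-ratio scaling the differences were 0.14 for Elovl4, 0.14 for Slc27a4, 0.10 for Acer1, 0.13 for Asah2 and 0.20 for Lipm. After rescaling to TPM they were -0.05 for Elovl7, -0.18 for Cers2, -0.03 for Smpd1, -0.09 for Sgms1, -0.11 for Sgms2, 0.00 for Asah1 and -0.06 for Lipk. After quantile normalization they were 0.01 for Kdsr, 0.00 for Aloxe3, 0.14 for Asah2 and 0.10 for Lipm, and with sample weights 0.00 for Asah2. Without 1 library they ranged from -0.28 to 0.11 for Elovl4, -0.26 to 0.07 for Slc27a4, -0.21 to 0.15 for Asah2, -0.07 to 0.52 for Elovl7, -0.01 to 0.32 for Lipk, -0.16 to 0.13 for Lipm and -0.01 to 0.22 for Sgms2. The cause of these changes was not tested.

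The labels do not say whether replicate numbers pair the samples. Deviations of same-numbered libraries correlated at 0.20, -0.01 and 0.33 across genes, and those of other pairs at -0.28 to 0.08. Replicates 1 and 3 correlated best with their own number, and replicate 2 did not. With 3 libraries per group these values cannot show whether the samples were paired. With the replicate block 5907 genes passed, of the lipid genes 17 as higher and 3 as lower; Alox12b did not pass (adjusted p = 0.0612). The 36 genes had at least 223 reads in each library; whether depth or the 3 samples per group limit the calls was not tested.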
